A study of Mus musculus with 32 samples.

Results

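Open chromatin was examined at 8 mouse genes that control the exit of stem cells from quiescence: the kinase gene Cdk6, the D cyclin genes Ccnd1, Ccnd2 and Ccnd3, and the inhibitor genes Cdkn1a, Cdkn1b, Cdkn1c and Cdkn2c. A region of open chromatin was assigned to one of these genes when that gene was the nearest protein-coding gene model and lay within 50 kb. By this rule 38 of 31846 regions belonged to the 8 genes, and 30 of them were tested among 23554 tested regions. Every gene had at least 2 tested regions, and 14 of the 30 held a peak in all 16 libraries. Such an assignment rests on distance alone, and a region may act on another gene.

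Haematopoietic stem and progenitor cells (HSPCs, Lin- cKit+ Sca1+) were sorted from bone marrow as cells of the wild-type donor (C57BL/6J, CD45.1+/2+) of a mixed transplant, so the cells studied carried no leukaemia transgene. AF9-experienced mice (AF9+/+) were lethally irradiated C57BL/6J recipients (CD45.2) given 800000 wild-type marrow cells with 200000 cells from iMLL-AF9 mice, which are CD45.1 and homozygous for hMLL-AF9 and rtTA, so that doxycycline switches on the fusion. Naive mice (AF9-/-) were built alike, with hMLL-AF9-null marrow that is homozygous for rtTA alone. After 6 to 8 weeks the model used 5 weeks of doxycycline and 4 weeks of withdrawal, and mice then received LPS, a bacterial lipopolysaccharide sensed by Toll-like receptor 4, or PBS, 24 hours before sacrifice. The groups were AF9-experienced LPS (n = 5), AF9-experienced PBS (n = 4), naive LPS (n = 3) and naive PBS (n = 4), each library a labelled biological replicate. The comparisons ask what LPS does at these genes, and whether earlier exposure to MLL-AF9 cells changes their chromatin at baseline or after LPS. The age of the animals, and whether animals were pooled, are not given in the sources used here.

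As background, a D cyclin binds CDK4 or CDK6, and the active kinase phosphorylates the retinoblastoma protein, which releases E2F factors and lets a cell leave G1. Proteins of the Cip and Kip family, p21 (Cdkn1a), p27 (Cdkn1b) and p57 (Cdkn1c), bind cyclin-kinase complexes, while p18 (Cdkn2c) belongs to the INK4 family, which binds CDK4 and CDK6 and keeps D cyclins off them. In blood, CDK6 is known for setting how quickly a quiescent stem cell enters division, first described in human stem cells, and p57 is known as a marker and keeper of stem cell quiescence in mice.

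Accessibility was measured by ATAC-seq, in which a transposase cuts open DNA, and the lists of peaks that the authors called were compared. The lists held 19448 to 88816 peaks, so only the 19100 autosomal peaks with the highest authors' -log10 p were kept from each. A region's strength in a library is the percentile rank of its best peak in that shortened list. The top of the list is 100, and 0 is given where no peak was kept, even if the full list holds a weaker one. Differences are in percentile points of rank, and a region's rank can move because other regions move. In cells measured in bulk, a changed share of one kind of cell and a change within each cell cannot be told apart. The 3 shortest lists were those of naive PBS 1 (19448 peaks), AF9-experienced PBS 1 (25685) and naive LPS 3 (39464). Among the other lists, the authors' median fold enrichment was 9.16 to 13.6 in 7 LPS lists and 13.9 to 19.4 in 6 PBS lists. Of 12 HSPC marker genes, 7 to 8 had a gene-end peak in LPS lists and 7 to 9 in PBS lists, with none at Ly6a, which encodes Sca1, in any list. No list held a gene-end peak of the 4 B cell markers, and mature neutrophil markers gave 0 of 8 in LPS lists and 0 to 1 in PBS lists.

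Promoter sequences are shown for 6 of the 8 annotated starts, so that starts with and without a peak can be read together. They come from RefSeq (GRCm38.p6) and run from 250 bases before to 50 bases after the start, 5′ to 3′ on the gene's strand, with capitals marking motif matches. Of the 8 genes, 5 had an entry with 8 starts in all, and there was no entry for Ccnd1, Ccnd2 or Cdkn1c.
Cdk6, start at 3343893, chr5:3343643-3343942, + strand: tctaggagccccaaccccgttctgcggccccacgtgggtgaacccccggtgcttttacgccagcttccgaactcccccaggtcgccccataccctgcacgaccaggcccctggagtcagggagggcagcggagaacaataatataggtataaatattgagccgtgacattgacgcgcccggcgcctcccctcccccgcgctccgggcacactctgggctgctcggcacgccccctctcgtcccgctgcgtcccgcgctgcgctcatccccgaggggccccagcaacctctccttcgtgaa
Ccnd3, start at 47505051, chr17:47504801-47505100, + strand: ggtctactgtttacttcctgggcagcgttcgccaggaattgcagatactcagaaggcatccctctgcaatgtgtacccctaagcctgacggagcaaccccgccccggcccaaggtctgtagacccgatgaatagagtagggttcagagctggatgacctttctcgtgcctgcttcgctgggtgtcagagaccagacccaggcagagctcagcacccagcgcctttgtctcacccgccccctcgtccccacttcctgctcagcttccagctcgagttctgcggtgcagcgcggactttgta
Ccnd3, start at 47593467, chr17:47593217-47593516, + strand: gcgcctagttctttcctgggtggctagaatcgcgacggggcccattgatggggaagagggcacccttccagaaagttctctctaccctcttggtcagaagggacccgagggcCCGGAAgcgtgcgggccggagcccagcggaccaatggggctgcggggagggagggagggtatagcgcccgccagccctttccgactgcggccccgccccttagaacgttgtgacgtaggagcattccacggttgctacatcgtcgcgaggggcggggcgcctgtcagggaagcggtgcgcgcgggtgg
Cdkn1a, start at 29090979, chr17:29090729-29091028, + strand: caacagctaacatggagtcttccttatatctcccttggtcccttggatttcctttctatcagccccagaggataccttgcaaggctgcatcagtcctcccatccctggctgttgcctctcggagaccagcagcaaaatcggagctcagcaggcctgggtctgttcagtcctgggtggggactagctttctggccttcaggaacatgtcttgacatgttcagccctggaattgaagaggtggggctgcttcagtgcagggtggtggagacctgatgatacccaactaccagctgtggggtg
Cdkn1a, start at 29093769, chr17:29093519-29093818, + strand: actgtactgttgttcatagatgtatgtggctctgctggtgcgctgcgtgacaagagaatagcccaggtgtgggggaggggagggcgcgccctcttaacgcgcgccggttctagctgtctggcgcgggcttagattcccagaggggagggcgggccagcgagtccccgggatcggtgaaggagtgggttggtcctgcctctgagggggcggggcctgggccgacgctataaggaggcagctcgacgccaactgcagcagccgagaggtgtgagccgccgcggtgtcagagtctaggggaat
Cdkn2c, start at 109666756, chr4:109666707-109667006, - strand: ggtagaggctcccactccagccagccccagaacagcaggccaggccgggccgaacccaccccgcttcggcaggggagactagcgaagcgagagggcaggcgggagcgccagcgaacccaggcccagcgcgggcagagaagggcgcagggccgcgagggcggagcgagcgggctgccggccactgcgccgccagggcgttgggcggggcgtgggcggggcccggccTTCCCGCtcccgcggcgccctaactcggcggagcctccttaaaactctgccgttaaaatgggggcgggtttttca

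The outer Cdkn1a start had no peak in any of the 16 full lists, and its promoter holds 2 CpG dinucleotides. The inner start, downstream of it, lay under a peak in 15 of 16 full lists and holds 23 CpG. For Ccnd3 the outer start had a peak in 13 of 16 full lists, with an authors' fold of 3.06 to 4.80, and holds 15 CpG. The inner Ccnd3 start had a peak in 16 of 16, at 6.12 to 12.2 fold, and holds 28 CpG. The Cdk6 promoter, with 27 CpG, had a peak in 15 of 16 full lists, and the outer Cdkn2c promoter, with 33, in 16 of 16. Across 32851 promoters of the same length the median was 7 CpG, with quartiles of 3 and 20.

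Motifs were searched on both strands without regard to overlap. The inner Ccnd3 promoter holds the ETS motif CCGGAA, 138 bases before the start, which 14.9% of all promoters also hold. The outer Cdkn2c promoter holds the E2F motif TTCCCGC, 25 bases before the start, found in 4.6% of all promoters. The inner Cdkn2c promoter, with 8 CpG and a peak in 14 of 16 full lists, holds the PU.1 motif GAGGAAG (13.6% of promoters) and the C/EBP motif TTGCNNAA (10.8%). The other 6 motifs had no match in these 8 windows. They were AP-1 (TGANTCA), held by 7.81% of promoters, and STAT (TTCNNNGAA), held by 8.3%. The GATA motif used (AGATAA) is held by 11.2% of promoters. The RUNX motif used (TGTGGT) is held by 16.8%, the IRF motif (GAAANNGAA) by 8.56% and the NF-kB motif by 8.46%. A match describes letters in the window and is not evidence of a bound site.

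After LPS, 3 of the 7 tested regions of Cdk6 ranked higher in both kinds of mice, and none ranked lower. In naive mice 3 of the 30 regions of the 8 genes were called higher and 0 lower with limma at a Benjamini-Hochberg adjusted p under 0.05, against 2% higher and 1.22% lower of all tested regions. In AF9-experienced mice the same count was 3 higher and 0 lower, against 3.44% and 1.74%. All 3 were the same Cdk6 regions in both backgrounds. Averaged over both backgrounds with equal weight, 4 of the 30 were called higher and 1 lower, against 7.18% and 5.45% of all tested regions, and both further calls lay at Ccnd3. The median difference of the 30 regions was +1.27 points in that average, against -0.11 for all tested regions. The background figures count regions and not genes, and neighbouring regions of 1 gene share their surroundings.

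**Figure D1:**
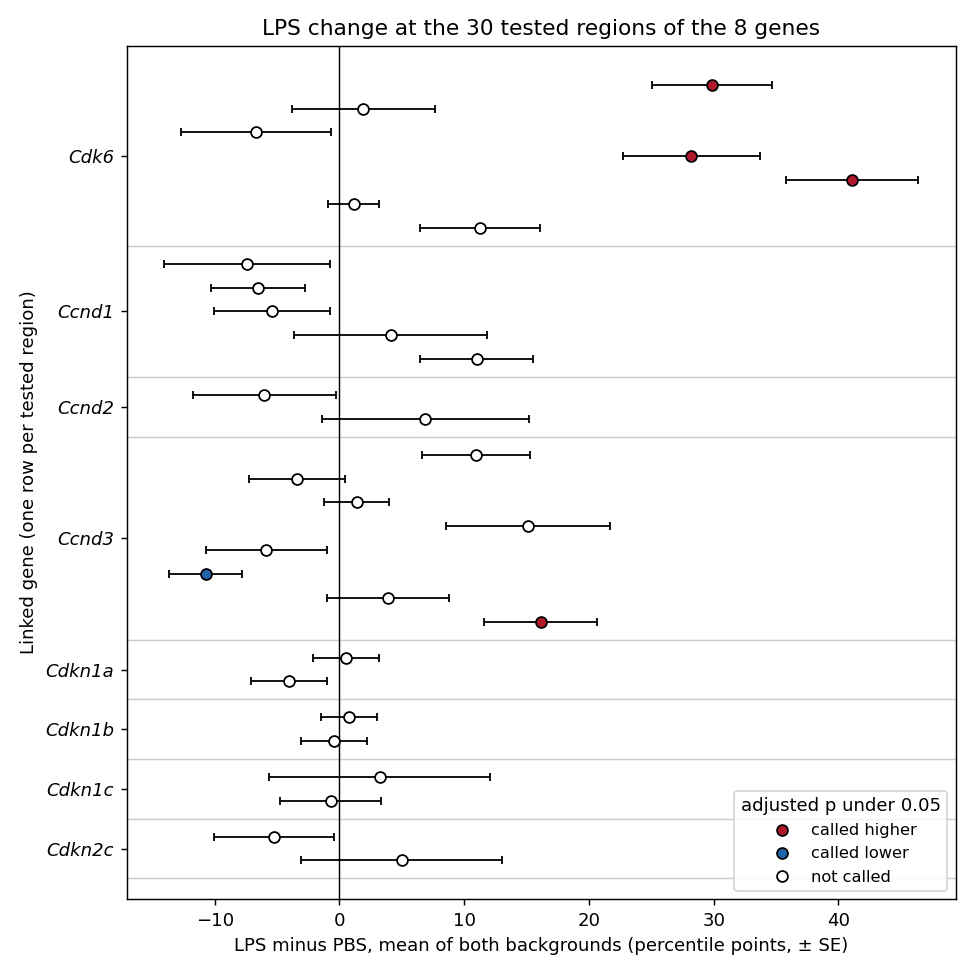
LPS minus PBS in percentile points, averaged over both backgrounds (horizontal axis, ± SE), for the 30 tested regions grouped by linked gene (vertical axis); filled points were called at an adjusted p under 0.05. The 3 called Cdk6 regions lie at +28.2 to +41.1, the called Ccnd3 regions at +16.1 and -10.7, and no region of the other 6 genes is filled.

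Cdk6 spans 190.0 kb at chr5:3341004-3531008, and the region with the clearest LPS difference, called region 5 here, lies inside it at chr5:3497252-3498170, 154 kb past the annotated start at 3343893. Its values were 28.2, 49.9, 46.4, 41.8 and 60.1 in AF9-experienced LPS and 0 in all 4 AF9-experienced PBS libraries. They were 40.2, 41.5 and 28.9 in naive LPS and 0 in all 4 naive PBS libraries. Every LPS library had this region among its 19100 strongest peaks and no PBS library did, a pattern shared by 0.599% of all tested regions. The region therefore met the filter of 3 or more lists through LPS lists alone, and its tests set LPS ranks against PBS values of 0. The difference was +45.3 points (SE 6.97, adjusted p = 0.000442) in AF9-experienced mice and +36.9 points (SE 7.93, adjusted p = 0.0107) in naive mice. The mean over both backgrounds was +41.1 points (SE 5.28, adjusted p = 1.9e-05). The call in naive mice ended without naive LPS 2 (adjusted p = 0.0611) and in a fit of the 2 naive groups alone (adjusted p = 0.0607).

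A peak was present at region 5 in most PBS libraries, but further down their lists than in LPS libraries of the same background. In the full lists it was found in 8 of 8 LPS and 7 of 8 PBS libraries, the exception being naive PBS 1, the shortest list. Counted from the strongest peak by -log10 p, it stood 16.1%, 14.0%, 16.8%, 18.6% and 11.8% of the way down the full lists of AF9-experienced LPS, against 77.8%, 28.8%, 29.0% and 38.9% in AF9-experienced PBS. In naive mice it stood 15.1%, 17.6% and 35.2% of the way down in LPS, against 47.7%, 38.6% and 37.9% in the 3 PBS lists that held it. These positions depend on the length of each list. The LPS and PBS positions did not overlap within a background, but naive LPS 3, from a list of 39464 peaks, stood lower than AF9-experienced PBS 2 and 3, from lists of 88505 and 88816 peaks. The authors' fold enrichment at this peak overlapped, at 3.94 to 7.73 in LPS (median 6.27) and 3.33 to 7.27 in PBS (median 5.71). Summits lay within 126 bp of each other over the LPS lists.

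Region 1 lies upstream of Cdk6, at chr5:3300857-3301539, 39.5 kb outside the gene model and 42.7 kb before the annotated start. Its values were 16.8, 28.8, 40.0, 23.9 and 32.1 in AF9-experienced LPS, against 7.04, 0, 0 and 0 in AF9-experienced PBS. In naive mice they were 23.9, 37.7 and 37.9 in LPS and 0 in all 4 PBS libraries. No PBS value reached the lowest LPS value. Only 1 PBS list held the region, so it met the filter of 3 or more lists through its LPS lists. Its naive test set LPS ranks against PBS values of 0. The difference was +26.6 points (SE 6.38, adjusted p = 0.0167) in AF9-experienced mice, +33.2 points (SE 7.26, adjusted p = 0.0123) in naive mice and +29.9 points (SE 4.83, adjusted p = 0.000241) in the mean. The call in AF9-experienced mice ended when AF9-experienced PBS 2, 3 or 4 was left out (adjusted p = 0.0581, 0.0647 and 0.0633). That in naive mice ended without naive LPS 2 (adjusted p = 0.0624). The full lists held a peak here in 8 LPS and 7 PBS libraries. Positions overlapped in naive mice, with naive LPS 3 at 30.7% of its list and naive PBS 4 at 29.8%. They did not in AF9-experienced mice, where AF9-experienced LPS 4 stood at 24.4% and AF9-experienced PBS 2 at 24.8%. The authors' fold was lower in LPS by its median, 11.9 (6.98 to 13.3) against 16.8 (4.49 to 24.7) in PBS.

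Region 4 lies at chr5:3494262-3494942, 151 kb past the start and near region 5. Its values were 23.1, 27.8, 41.4, 30.6 and 29.0 in AF9-experienced LPS, against 0, 0, 11.2 and 10.6 in AF9-experienced PBS, and 51.7, 15.4 and 27.4 in naive LPS, against 0 in all 4 naive PBS libraries. Here too all 8 LPS values in the shortened lists stood above all 8 PBS values. These 3 Cdk6 regions were the only regions of the 8 genes of which that was true (1.9% of all tested regions). None of the 30 had all 8 LPS values below all 8 PBS values, against 0.807% of all. The difference was +24.9 points (SE 7.24, adjusted p = 0.0476) in AF9-experienced mice and +31.5 points (SE 8.24, adjusted p = 0.0366) in naive mice, both near the threshold. The mean was +28.2 points (SE 5.48, adjusted p = 0.00146). Only 2 PBS lists held region 4, so it too met the filter of 3 or more lists through its LPS lists. In naive mice its test set LPS ranks against PBS values of 0. Leaving out single libraries ended the call within a background many times, with an adjusted p of up to 0.210 in naive mice (without naive LPS 1) and 0.140 in AF9-experienced mice (without AF9-experienced PBS 2), while that of the mean held each time. The full lists held a peak here in 8 LPS and 6 PBS libraries, and positions overlapped in both backgrounds. AF9-experienced LPS stood at 17.3% to 22.2% of the list, and AF9-experienced PBS at 19.5% to 26.6%. Naive LPS stood at 12.2% to 35.9%, and naive PBS at 28.3% to 31.5%. The authors' median fold was 5.96 (4.06 to 9.09) in LPS and 8.68 (7.40 to 10.4) in PBS.

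**Figure D2:**
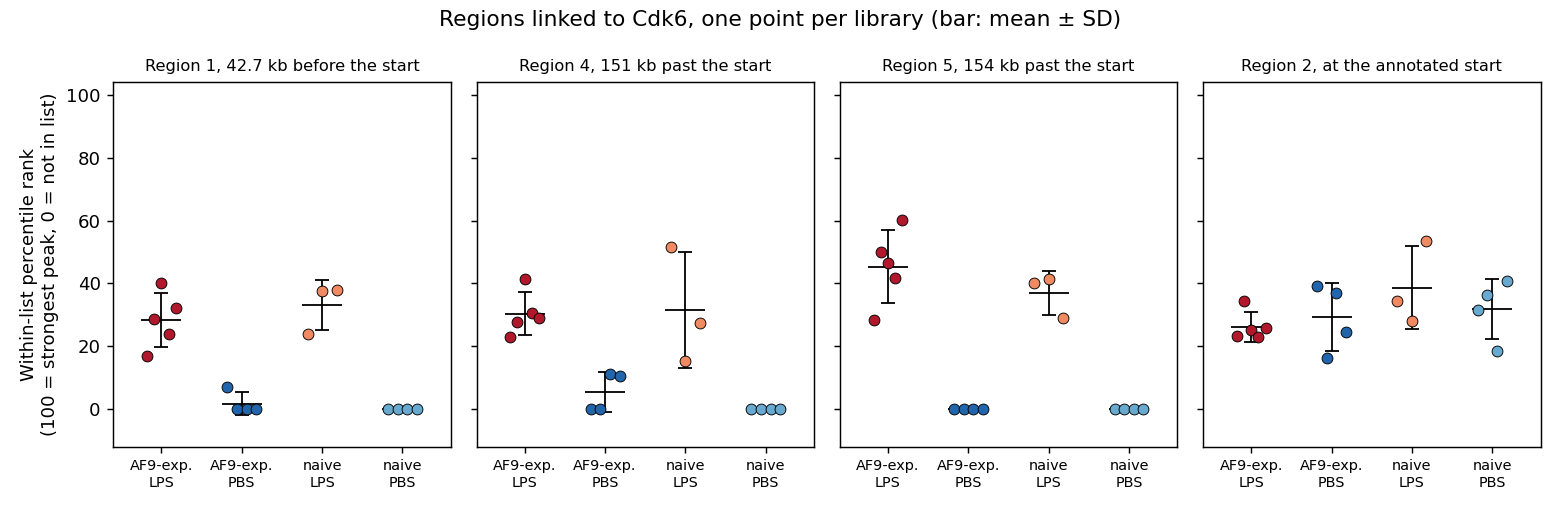
Within-list percentile rank (vertical axis, 100 is the strongest peak and 0 means not in the shortened list) in each library of the 4 groups, for the 3 called Cdk6 regions and the region at the annotated start; points are libraries and bars mean ± SD. The 8 LPS libraries lie above the 8 PBS libraries at regions 1, 4 and 5, and overlap them at the start.

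The region at the annotated Cdk6 start, at chr5:3341135-3344750, was not called. It averaged 26.2 ± 4.81 in AF9-experienced LPS (SD, n = 5) and 29.2 ± 10.8 in AF9-experienced PBS (n = 4), 38.6 ± 13.2 in naive LPS (n = 3) and 31.8 ± 9.60 in naive PBS (n = 4). It held a peak in every list, and the groups overlapped. The region is 3616 bp wide, and in naive PBS 1 its best peak had its summit at 3341268, with no peak over the promoter. The mean LPS difference was +1.93 points (SE 5.76, adjusted p = 0.864), and its sign was not stable to the processing. Whether the 3 called regions differ from the start region in their LPS change was not tested.

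The 3 called regions of Cdk6 moved together over the 16 libraries, with a Pearson r of 0.913 for regions 5 and 1, 0.842 for regions 5 and 4, and 0.787 for regions 4 and 1. These are descriptions over libraries that share the LPS and PBS grouping. Regions elsewhere with the most similar pattern to region 5 over the 16 lists lay inside Ripor1 (r = 0.971), Rac1 (0.970), Ptprj (0.970) and Bcl2 (0.967) and at the end of Clec2i (0.965). Each of these regions was absent or almost absent from the shortened PBS lists, with group means of 33.8 to 48.7 in the LPS groups.

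The libraries differed in ways that ran alongside LPS. All 3 naive LPS libraries, and AF9-experienced LPS 1 and 2, held 2 or more chromosome Y peaks, while the PBS libraries held 0 or 1, so in naive mice this property and LPS cannot be told apart. Gene-end peaks of 5 erythroid markers numbered 2 to 3 in LPS lists and 2 in PBS lists, with a summed rank of 157 to 206 in LPS and 121 to 167 in PBS. The 6 T and NK cell markers gave 1 to 2 in LPS and 1 in PBS, and the 5 monocyte markers 0 to 1 in LPS and 0 in PBS. The part of these markers in the results was not tested. Without those 5 libraries with chromosome Y peaks the AF9-experienced differences were +49.4 points at region 5 (adjusted p = 0.000675), +30.2 at region 1 (0.00492) and +28.2 at region 4 (0.0142). With chromosome Y peaks as a covariate over all 16 libraries, the 3 Cdk6 calls in naive mice ended. The naive differences were then +47.2, +42.3 and +39.7 points at regions 5, 1 and 4 (adjusted p = 0.0721, 0.0751 and 0.174). With the median fold enrichment of each list as a covariate, the mean differences were +41.0, +27.4 and +29.7 points at regions 5, 1 and 4 (adjusted p = 6.2e-05, 0.000988 and 0.00192). Without the 3 shortest lists, at the same list length, region 4 in AF9-experienced mice was +23.1 points (adjusted p = 0.0596).

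The Cdk6 calls depended on the measure of strength. Ranked by the authors' fold enrichment in place of -log10 p, region 5 was in none of the shortened lists and region 4 in 1, so neither could be tested. Region 1 was then in 8 LPS and 6 PBS lists, and its mean difference was +27.3 points with an adjusted p of 0.0798. In that ranking no Cdk6 region was called. The 3 regions of the 8 genes called in the mean were higher after LPS and were the region over both Cdkn2c starts (+33.5 points, SE 8.67, adjusted p = 0.0139) and both regions of Cdkn1b (+38.8 and +37.9, SE 12.6 and 13.4, adjusted p = 0.0328 and 0.0445). Of all tested regions 13.5% were called higher and 9.22% lower in that ranking. The Cdkn2c region was also called in AF9-experienced mice (+45.2 points, SE 11.4, adjusted p = 0.0482), where 0.895% of all regions were called higher and 0.514% lower. In naive mice 0 of the 16 regions of the 8 genes tested in that ranking were called, against 0.0074% of all regions in each direction.

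Longer lists let weaker peaks of the same genes be read. Without the 3 shortest lists, 13 lists of 59609 peaks gave 70017 tested regions, of which 74 belonged to the 8 genes and 27 to Cdk6. In the mean over both backgrounds 10 of the 27 Cdk6 regions were called higher and 0 lower. For all 8 genes the count was 15 higher and 4 lower of 74, against 10.2% higher and 11.7% lower of all regions. Within a background, 7 Cdk6 regions were higher in AF9-experienced mice and 8 in naive mice, with none lower. For all 8 genes the counts were 10 higher and 1 lower in AF9-experienced mice (4.93% and 5.53% of all regions) and 10 higher and 0 lower in naive mice (3.9% and 2.83%). Region 4 was +9.62 points in AF9-experienced mice in these lists and was no longer called there (adjusted p = 0.0742), and its mean was +12.5 points (SE 2.69, adjusted p = 0.00326). Of the 10, 7 lay between 122 kb and 159 kb past the start, and the others lay 42.7 kb before it, 10.6 kb past it and 169 kb past it. Those at 122 kb, 129 kb and 140 kb met the filter of 3 or more lists through LPS lists. Their PBS values were 0 except 4.87 at 122 kb (naive PBS 4) and 9.11 at 129 kb (naive PBS 2). At 140 kb the exceptions were 3.87 (AF9-experienced PBS 4) and 0.41 (naive PBS 2). Some Cdk6 regions not called were at 0 in every PBS list and could not have ranked lower after LPS.

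The largest difference among the 27 Cdk6 regions of the longer lists was at chr5:3501414-3502230, 158 kb past the start. Only 3 of the 16 shortened lists, all from LPS libraries, held a peak there. In those 16 lists it was tested as Cdk6 region 6 and not called (+1.14 points in the mean, SE 2.05, adjusted p = 0.765). Its values in the longer lists were 63.8, 48.1, 68.3, 70.8 and 65.6 in AF9-experienced LPS, against 3.99, 0 and 8.98 in AF9-experienced PBS. In naive mice they were 65.2 and 67.6 in LPS, against 12.1, 0.086 and 13.01 in PBS. The difference was +58.5 points in the mean (SE 6.38, adjusted p = 1.5e-05), and the LPS and PBS values did not overlap in either background. At chr5:3354290-3354743, 10.6 kb past the start, the mean difference was +40.8 points (SE 8.40, adjusted p = 0.00239).

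**Figure D3:**
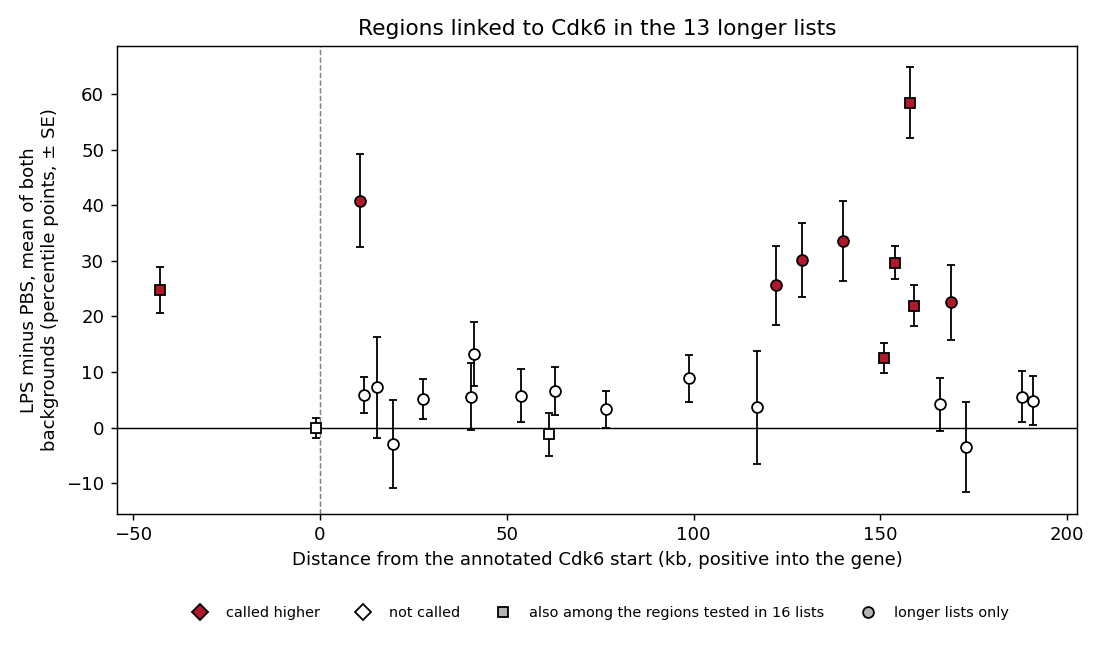
LPS minus PBS in percentile points, averaged over both backgrounds (vertical axis, ± SE), for the 27 Cdk6 regions tested in the 13 longer lists, by distance from the annotated start (horizontal axis, kb). Filled points were called higher and 7 of these 10 lie from 122 kb to 159 kb, while the square at the start lies at 0. Those at 122 kb, 129 kb and 140 kb met the filter of 3 or more lists through LPS lists.

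Among the D cyclins, only Ccnd3 had regions called in the 16 lists, and its 2 called regions went opposite ways. Ccnd3, the D cyclin of many blood lineages, spans 94.6 kb at chr17:47505051-47599689 and had 8 tested regions, 5 of them in all 16 lists. Region 8, at chr17:47593157-47594253, covers the inner start whose promoter holds the ETS motif. Its values were 60.6, 74.4, 78.6, 72.5 and 71.0 in AF9-experienced LPS, against 89.8, 78.3, 76.1 and 82.6 in AF9-experienced PBS. In naive mice they were 71.1, 62.5 and 78.2 in LPS, against 85.1, 80.2, 81.8 and 79.7 in PBS. The groups overlapped in AF9-experienced mice and did not in naive mice. The mean difference was -10.7 points (SE 2.93, adjusted p = 0.0179), with neither background called alone (-10.3 points, adjusted p = 0.133, in AF9-experienced mice and -11.1 points, adjusted p = 0.195, in naive mice). Without naive LPS 2 the mean was -8.67 points (adjusted p = 0.0724), and by fold it was -3.89 points (adjusted p = 0.826).

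Region 10 of Ccnd3, at chr17:47598120-47598560 near the far end of the gene, appeared after LPS only in some libraries. Its values were 25.5, 15.7, 21.9, 23.0 and 0 in AF9-experienced LPS, against 0 in all 4 AF9-experienced PBS libraries, and 29.5, 15.6 and 0 in naive LPS, against 0 in all 4 naive PBS libraries. Like Cdk6 region 5, it met the filter of 3 or more lists through LPS lists alone. The mean difference was +16.1 points (SE 4.50, adjusted p = 0.0205). It was not called within AF9-experienced mice (+17.2 points, adjusted p = 0.0998) or naive mice (+15.0 points, adjusted p = 0.273), and without naive LPS 1 the mean was +12.5 points (adjusted p = 0.0671). In the full lists the peak was present in 8 LPS and 6 PBS libraries, at a fold of 2.66 to 5.22 in LPS and 1.67 to 3.66 in PBS. In the 13 longer lists the region was called in the mean at +39.6 points (SE 7.06, adjusted p = 0.000829), and region 8 at -3.43 points (SE 0.92, adjusted p = 0.0131). With chromosome Y peaks as a covariate neither region was called (adjusted p = 0.483 for region 8 and 0.355 for region 10). The other 6 Ccnd3 regions tested in the 16 lists differed by -5.86 to +15.1 points in the mean and none was called there. In the longer lists 2 of these were called higher in the mean, chr17:47507757-47508534 (+4.96 points, adjusted p = 0.00595) and chr17:47595245-47596184 (+3.62 points, adjusted p = 0.0473). A weaker region inside the gene, chr17:47531268-47532018, was called lower in them (-28.0 points, SE 7.10, adjusted p = 0.00937).

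**Figure D4:**
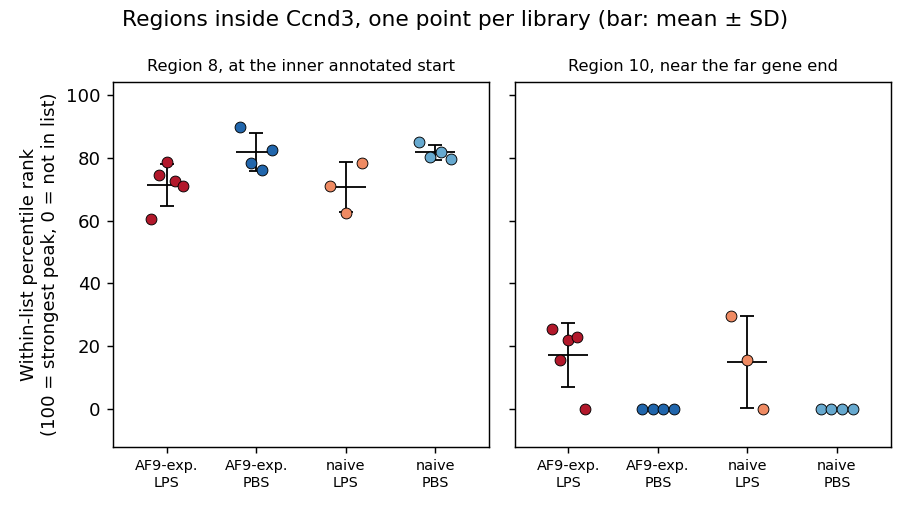
Within-list percentile rank (vertical axis) in each library of the 4 groups for both called Ccnd3 regions; points are libraries and bars mean ± SD. At the inner start the LPS libraries span 60.6 to 78.6, against 76.1 to 89.8 in the PBS libraries, and at region 10 all PBS libraries lie at 0.

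Ccnd1 and Ccnd2, the other D cyclins, had 5 and 2 tested regions and none was called in any comparison. The gene end of Ccnd1 (chr7:144939471-144939917) was weak: it averaged 4.28 ± 5.36 in AF9-experienced LPS (n = 5) and 4.20 ± 8.37 in AF9-experienced PBS (n = 4), 0 in all 3 naive LPS libraries and 13.2 ± 9.59 in naive PBS (n = 4). The strongest Ccnd1 region lay 31.0 kb outside the gene, at chr7:144970879-144971693. It averaged 69.1 ± 7.89 in AF9-experienced LPS and 55.3 ± 13.3 in AF9-experienced PBS, 53.8 ± 7.25 in naive LPS and 45.5 ± 4.46 in naive PBS. The mean LPS difference there was +11.0 points (SE 4.53, adjusted p = 0.119), while in the 13 longer lists it was called at +4.81 points (SE 1.29, adjusted p = 0.0129). The gene end of Ccnd2 (chr6:127150877-127152896) held a peak in all 16 lists and averaged 36.1 ± 8.42 in AF9-experienced LPS and 36.7 ± 8.79 in AF9-experienced PBS, 34.0 ± 8.34 in naive LPS and 45.3 ± 14.4 in naive PBS. Its mean difference was -6.01 points (SE 5.76, adjusted p = 0.540), within the spread between libraries.

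Among the inhibitor genes, no region of Cdkn1a, Cdkn1b, Cdkn1c or Cdkn2c was called among the 8 tested, and none reached an unadjusted p under 0.05 in an LPS comparison. Across all 30 regions, 9 reached that in the mean, 7 in AF9-experienced mice and 8 in naive mice, against 6250, 4524 and 3729 of the 23554 tested regions.

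Cdkn1b, which encodes p27, had regions that ranked high in all 4 groups. Its gene end, at chr6:134919644-134921311, averaged 78.8 ± 5.07 in AF9-experienced LPS (n = 5) and 83.2 ± 3.07 in AF9-experienced PBS (n = 4), 86.1 ± 5.19 in naive LPS (n = 3) and 80.2 ± 3.37 in naive PBS (n = 4). The LPS difference was -4.39 points (SE 2.96, adjusted p = 0.451) in AF9-experienced mice and +5.94 points (SE 3.37, adjusted p = 0.415) in naive mice. The difference between these was -10.3 points with an unadjusted p of 0.0313 and an adjusted p of 0.9998. The second Cdkn1b region, 1.32 kb past the gene at chr6:134926847-134929289, ranged from 71.6 to 93.4 over the 16 libraries and differed by -0.45 points in the mean (SE 2.67). In the ranking by fold both regions were called higher in the mean, as given above.

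Cdkn1a, which encodes p21, a target of p53, held its strongest region at its inner start. That region, at chr17:29093493-29095889, had values of 72.5, 71.4, 74.3, 69.4 and 66.2 in AF9-experienced LPS, against 77.6, 74.2, 78.7 and 70.4 in AF9-experienced PBS. In naive mice the values were 77.4, 61.6 and 72.8 in LPS, against 86.2, 68.4, 71.8 and 70.1 in PBS. The groups overlapped in both backgrounds, and the mean difference was -4.01 points (SE 3.05, adjusted p = 0.424). In the 13 longer lists a weaker region inside the gene, chr17:29099043-29099434, was called higher in the mean (+26.5 points, SE 7.10, adjusted p = 0.0128).

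Cdkn2c, which encodes p18, had 1 region over both of its annotated starts, at chr4:109665148-109667296. It averaged 80.5 ± 6.50 in AF9-experienced LPS and 67.8 ± 32.5 in AF9-experienced PBS, 79.2 ± 5.97 in naive LPS and 81.8 ± 5.75 in naive PBS. The wide spread in AF9-experienced PBS came from 1 library of a short list, replicate 1 at 19.1, and the other 3 stood at 83.3 to 85.3. The mean difference was +5.01 points (SE 8.06, adjusted p = 0.736) and was -3.11 points without that library. The same region was called higher in the ranking by fold.

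Cdkn1c, which encodes p57, had 2 tested regions, and neither was called in the 16 lists. Its gene end, at chr7:143460588-143461551, averaged 39.4 ± 17.0 in AF9-experienced LPS and 39.2 ± 26.5 in AF9-experienced PBS, 42.7 ± 6.04 in naive LPS and 36.5 ± 24.6 in naive PBS. In the 2 shortest lists, AF9-experienced PBS 1 and naive PBS 1, it was at 0. The mean difference was +3.22 points (SE 8.83, adjusted p = 0.851) and -11.1 points (adjusted p = 0.200) without the 3 shortest lists. A region 5.07 kb outside the gene, chr7:143466133-143466729, was at 0 in all 5 AF9-experienced LPS libraries and at 0, 1.40, 0 and 17.4 in AF9-experienced PBS, and in naive mice at 0, 0 and 29.0 in LPS and 2.90, 0, 11.9 and 10.7 in PBS. In the 13 longer lists this region was called lower in the mean (-15.8 points, SE 4.74, adjusted p = 0.0233), as was a region 26.9 kb past the Cdkn1b start (-18.1 points, SE 5.91, adjusted p = 0.0360).

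**Figure D5:**
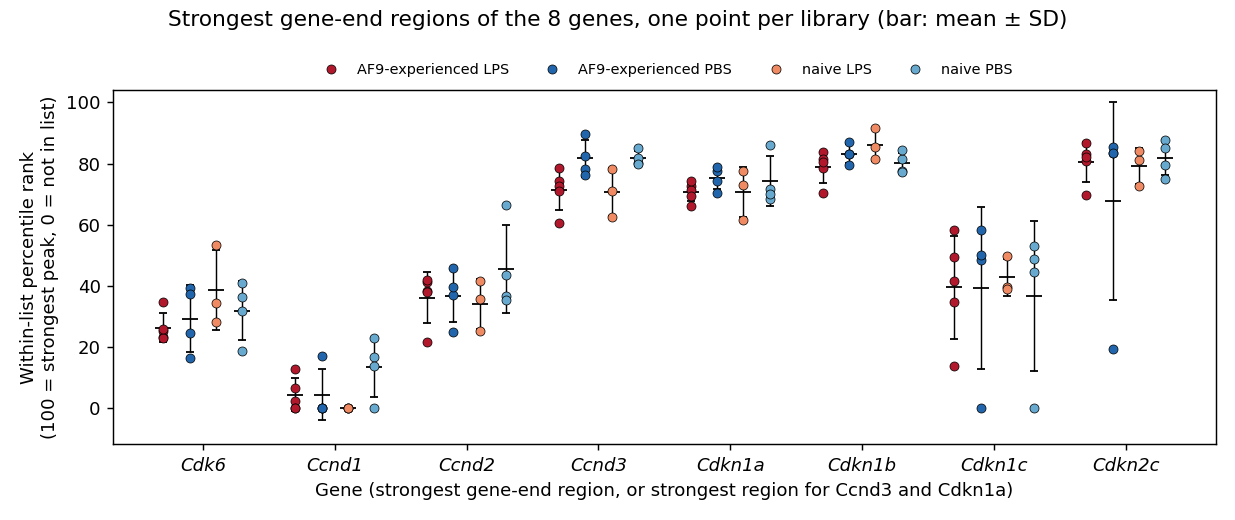
Within-list percentile rank (vertical axis) of each gene's strongest gene-end region, or of the strongest region where no gene end was tested (Ccnd3 and Cdkn1a), in each library of the 4 groups (horizontal axis, by gene); bars are mean ± SD. Cdkn1a, Cdkn1b and Ccnd3 lie above 60 in every library, Cdkn2c does so in all but AF9-experienced PBS 1 at 19.1, and the groups overlap at Cdk6, Ccnd2 and the inhibitor genes.

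Earlier exposure to MLL-AF9 cells gave no called difference at any of the 30 regions. In PBS mice limma called 0 of 30, against 0% of all tested regions, and 1 reached an unadjusted p under 0.05, as did 754 of all 23554. That region, number 3 of Cdk6 at chr5:3404393-3405777, was at 0, 3.72, 0 and 0 in AF9-experienced PBS and at 53.3, 22.7, 0 and 6.81 in naive PBS (-19.8 points, SE 8.39, adjusted p = 1). Its highest value came from naive PBS 1, the shortest list. In LPS mice 0 of 30 were called, against 0.0127% of all regions, and 2 reached an unadjusted p under 0.05, as did 1269 of all 23554. These were the strongest Ccnd1 region (+15.3 points, SE 6.51, adjusted p = 0.901) and the gene end of Cdkn1b (-7.29 points, SE 3.23, adjusted p = 0.916). The LPS change differed between the backgrounds at 0 of 30 regions, against 0% of all, with 2 below an unadjusted p of 0.05, as were 693 of all 23554. The differences of the 30 regions ran from -19.8 to +19.6 points after PBS and from -13.7 to +15.3 points after LPS, and differences of that size were not called with these group sizes.

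Other genes of the G1 to S passage were read from a list of 26, of which 25 had tested regions, 43 in all. After LPS 1 region was called higher and 0 lower in AF9-experienced mice, 2.33% and 0% of the 43 against 3.44% and 1.74% of all tested regions. In naive mice 0 were called, against 2% higher and 1.22% lower of all tested regions. In the mean over both backgrounds 3 were higher and 2 lower, 6.98% and 4.65% of the 43, against 7.18% and 5.45% of all tested regions. Inside Foxo3, which encodes a factor that keeps stem cells quiescent, a region at chr10:42244225-42245143 averaged 27.3 ± 16.4 in AF9-experienced LPS and 0 in AF9-experienced PBS, and 21.7 ± 7.49 in naive LPS and 0 in naive PBS (+24.5 points in the mean, SE 5.45, adjusted p = 0.00447). That region too met the filter through LPS lists alone. Both gene-end regions of Cdkn2d, an INK4 inhibitor gene, ranked higher by 7.02 and 4.96 points (SE 1.89 and 1.46, adjusted p = 0.0166 and 0.0273). The gene end of E2f1, an E2F factor, ranked lower (-4.70 points, SE 1.35, adjusted p = 0.0238). So did a weak region 0.788 kb outside Cdc25a, which encodes a phosphatase that activates cyclin-dependent kinases (-13.3 points, SE 3.85, adjusted p = 0.0250). The Cdc25a region averaged 0.26 ± 0.46 in AF9-experienced LPS and 17.1 ± 3.76 in AF9-experienced PBS. In naive mice it averaged 0 in LPS and 9.84 ± 12.9 in PBS.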

How the data were processed

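Members and gene lists were chosen with earlier results of these data known. The labels list 32 samples, a pair of technical libraries (2) per biological replicate, and the 16 replicates have 1 deposited peak list each, joined to its group by its name. Both an Omni-ATAC and a Chromium library protocol are named. Reads were processed with BWA, FastQC, MACS3, Picard and Trim Galore on GRCm38, per the submitters' processing notes, which give no versions; filters are not given in the sources used here. For each peak the authors deposited a fold enrichment over background, a ratio, with its -log10 p and -log10 q (lowest 1.30 to 1.33 per list); these are the peak's own values, used only within a list. Read depth is unknown from peak lists, so no interval was given.

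Lists were cut to 19100 autosomal peaks by -log10 p, overlapping peaks (1 bp) merged, and regions found in 3 or more lists tested. Limma 3.58.1 (R 4.3.3, empirical Bayes, trend and robust) fitted 1 mean per group, giving 6 contrasts, adjusted by Benjamini-Hochberg over all tested regions; the code was tested on simulated data. P-values measure the spread between the labelled replicates. Gene models were 21887 protein-coding RefSeq models (GRCm38.p6, no strand); either end within 1 kb is a gene end. Values per library are given for called regions, each gene's strongest gene-end region (or strongest region) and, for genes with no call, the region with the smallest p after LPS; the weaker regions of longer lists and Cdk6 region 3 were chosen after their values were seen. Alternatives were another ranking measure, list lengths, overlap, presence, the 2 groups alone, library weights, covariates, the filter, the linking distance and single libraries left out. Those without the 3 shortest lists at the same length and without libraries with chromosome Y peaks were chosen after seeing the data. At most 0.463% of peaks had identical coordinates in 2 lists.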

Additional observations from a re-analysis of the deposited data

Results flagged for a closer look

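Among 35 groups of 4 or 5 libraries examined at the named regions, 8 held a library far from the others by Dixon's test, where chance flags about 1 in 20 groups. In groups mostly at 0, any single peak is flagged this way. Of the 8, 3 came from AF9-experienced PBS 1 and 1 from naive PBS 1, the 2 shortest lists. AF9-experienced PBS 1 was the only library of its group with Cdk6 region 1 in the shortened list (7.04) and had the Cdkn2c promoter region at 19.1. Its value at the Cdkn1c gene end was 0, although its full list held a peak there at rank 20048, below the cut. Naive PBS 1 was also at 0 at the Cdkn1c gene end, with no peak there in its full list. The other 4 were AF9-experienced LPS 2 at the Cdk6 start region (34.6, above its group), AF9-experienced PBS 3 at the Ccnd1 gene end (16.8, above its group), AF9-experienced LPS 3 at the Ccnd2 gene end (21.4, below its group) and AF9-experienced PBS 4 at Cdkn1c region 2 (17.4, above its group).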

How the results depend on the processing

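Counts of called regions among the 8 genes changed with the processing, and the cause was not tested. Some settings used fewer lists or tested fewer regions. In the order AF9-experienced, naive and mean of both backgrounds they were 3, 3 and 5 as reported. They were 1, 0 and 3 when peaks were ranked by fold (16 regions tested), 0, 0 and 1 in lists of 9550 peaks (14 tested), 0, 0 and 0 by presence of a peak at a -log10 q of at least 5 or in the full lists, 6, 6 and 10 with library weights, and 11, 10 and 19 in the 13 longer lists. The naive count was 0 in a fit of its 2 groups alone and 0 with chromosome Y peaks as a covariate, where the mean gave 3. With median fold as a covariate AF9-experienced mice gave 6. Without the 3 shortest lists at the same length the mean gave 8. Leaving out 1 library gave 1 to 3 in AF9-experienced mice (1 without AF9-experienced PBS 2, 3 or 4), 1 to 3 in naive mice (1 without naive LPS 2, when the call at Cdk6 region 5 ended with an adjusted p of 0.0611) and 4 to 7 in the mean. The counts for AF9-experienced minus naive mice and for the interaction were 0 in all alternatives run for them.

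Of 21 same-numbered pairs of libraries, 3 correlated over 0.1 (range -0.215 to 0.231), and 3 of 16 libraries were closest to their own number, so the numbers were not taken as pairs. With the replicate block the calls at Cdk6 region 4 ended (adjusted p = 0.0966 in AF9-experienced and 0.0710 in naive mice), as did that at Cdk6 region 1 in AF9-experienced mice (0.0518), and Cdkn1c region 2 stood at +0.24 points in the mean.

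No difference called in the 16 equal-length lists changed sign in an alternative run for it. Mean differences not called there did so, in points, among them Cdkn1b region 1 and Cdkn2c region 2, which were called higher by fold, and Cdkn1c region 2, which was called lower in longer lists. Cdk6 region 2 was -0.052 in longer lists, -1.39 with median fold as covariate, -1.09 with chromosome Y peaks as covariate, -0.16 without the 3 shortest lists, and -1.77 to +4.55 leaving out 1 library. Ccnd2 region 4 was +0.39 in longer lists and +1.23 without the 3 shortest. Cdkn1a region 3 was +4.76 by fold. Cdkn1b region 1 was -1.74 with chromosome Y peaks, and -0.61 to +1.95 leaving out 1 library. Cdkn1c region 1 was -1.15 in lists of 9550 peaks, -3.57 in longer lists, -7.34 with library weights, -9.02 with chromosome Y peaks, -11.1 without the 3 shortest, and -3.31 to +6.46 leaving out 1 library. Cdkn1c region 2 lay between -5.54 and +1.71 leaving out 1 library. Cdkn2c region 2 was -1.75 in longer lists, -2.86 with library weights, -0.27 with chromosome Y peaks, -5.45 without the 3 shortest, and -3.11 to +7.92 leaving out 1 library. As a share of lists with a peak, LPS minus PBS was +0.25 by both presence measures for Ccnd1 region 2, and +0.25 (-log10 q of at least 5) and +0.125 (full lists) for Cdkn1c region 2.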
